A study of Mus musculus with 11 samples.

Results

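The genes described here encode complex III, complex IV and ATP synthase of the mitochondrial inner membrane, together with cytochrome c. Members were taken by symbol from the GENCODE M21 annotation of the mouse genome (GRCm38, mm10): protein-coding genes whose symbol begins with Uqcr, Atp5, or Cox followed by 4 to 8, plus Cyc1, Cycs and 6 genes of the mitochondrial genome. The rule gave 51 members among 35084 gene symbols, 45 of them in the nuclear genome and 6 in the mitochondrial genome. Complex III held 10 members, complex IV 21, ATP synthase 19 and cytochrome c 1. The gene of cytochrome b is named mt-Cytb in this annotation. Atp5s carries the prefix but encodes a coupling factor that is not counted as a structural subunit.

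The libraries came from KP1, a mouse small cell lung cancer (SCLC) line. Bulk RNA sequencing of cultured cells compared 2 groups, untreated controls with replicate numbers 2 and 3, and irradiated cells with replicate numbers 1, 2 and 3 that had received 5 Gy and were collected after 24 h. All 5 cultures share the same cell line and medium, and the labels do not say whether the replicates were grown or handled separately, so p values measure the spread between these libraries only. Since the cells are a single line in culture, the results describe that line, and in bulk RNA a change in the share of cells that express a gene cannot be told apart from a change in RNA per cell. The other samples of the series, leukocytes sorted from tumors, were not analysed here.

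Respiration moves electrons from carbon fuels to oxygen through protein complexes of the inner membrane. Complex III takes electrons from ubiquinol and passes them to cytochrome c, complex IV passes them from cytochrome c to oxygen, and both help to build the proton gradient that ATP synthase uses to make ATP. Each of these enzymes is a mosaic of 2 genomes: a few core proteins are made inside the organelle from mitochondrial DNA, which is transcribed as long polycistronic RNA and cut into single messages, while all other subunits are encoded in the nucleus, translated in the cytosol and imported. Many nuclear subunits are small proteins with short messages, and their promoters are known to be bound by NRF1, GABP (an ETS factor, also called NRF2) and YY1. Cytochrome c also triggers caspase activation when it leaves mitochondria.

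Among the nuclear members, 33 of 41 tested were higher in irradiated cells at an adjusted p under 0.05 (edgeR) and 0 were lower. None was lower at an unadjusted p under 0.05 or by DESeq2 or limma either. Of all 14099 genes tested, 12.7% were called higher and 13.0% lower. The median log2 fold change of the nuclear members was 1.12, against 0.02 over all genes. None of the 6 mitochondrially encoded members was called in either direction by edgeR, where 1 (mt-Co3) had an unadjusted p under 0.05, and their median was −0.10. DESeq2 called that 1 gene higher and limma on TPM 0. With an added requirement of a log2 fold change above 1.5, the cutoff used by the study, 9 members were called higher and 0 lower. Of all genes 1.66% were higher and 1.89% lower. The 9 were Uqcr11, Uqcrh and Uqcr10 of complex III, Cox6b1, Cox7c and Cox8b of complex IV, and Atp5e, Atp5k and Atp5mpl of ATP synthase. Cox8b, at 0 and 2 reads in the controls, entered the test only through the irradiated libraries. The counts depended on control replicate 2, since without it 2 members were called higher (Cox4i1 and Cox7a2l) where 0.657% of all genes were, and 0 passed both cutoffs, where 0.226% of all genes did upward. Without control replicate 3, 32 were called and 18 passed both cutoffs, where 15.2% and 5.13% of all genes did upward. Without irradiated replicate 1 the counts were 20 and 5, where 6.08% and 1.07% of all genes did. Without irradiated replicate 2 they were 23 and 2, where 4.94% and 0.696% did, and without irradiated replicate 3 they were 34 and 12, where 11.3% and 2.28% did. The nuclear median stayed between 0.92 and 1.44 when any 1 library was left out.

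The libraries behind these calls were unequal in transcript length. The average read fell on a transcript of 5463 bases in control 2, 4729 bases in control 3, and 3715, 3625 and 3998 bases in irradiated replicates 1, 2 and 3. The main transcripts of the tested nuclear members had a median of 714 bases, against 2981 bases over all genes tested. When each library's trend with transcript length was taken out with a spline offset, 8 members remained higher and 0 were lower, where 3.05% of all genes were higher and 2.21% lower. The 8 were Uqcr10, Uqcrh and Uqcrq of complex III, Cox4i1 and Cox7a2l of complex IV, and Atp5e, Atp5g3 and Atp5mpl of ATP synthase. The nuclear median fell to 0.57 and the mitochondrial median to −0.59. Such an offset removes any trend with length, whatever its origin, and the part of RNA quality, fragment selection or cell state in that trend was not tested.

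The promoter sequences of members past both cutoffs are shown because their regulators are well known. Of the 45 nuclear members, 32 had a promoter in the RefSeq table used (GRCm38.p6), and the 250 bases before the start were searched on both strands for 5 motifs of which none contains another. The GABP motif CCGGAAG was in 25.0% of the 32 promoters, against 14.9% of the promoters of tested genes and 7.83% of all promoters. The NRF1 motif, GCGC and GCGC around any pair of bases, was in 15.6% of the members, against 11.7% of tested genes. YY1 (AANATGGC) was in 3.12% against 5.09%, the hypoxia response core ACGTG in 28.1% against 24.4%, and the Sp1 box GGGCGG in 28.1% against 63.2%. The windows below run from 5′ to 3′ on the strand of the gene and hold the 120 bases before the start. Capitals mark the GABP motif on either strand, or in Atp5k the NRF1 motif.
Uqcr11, chr10:80406822-80406941, minus strand: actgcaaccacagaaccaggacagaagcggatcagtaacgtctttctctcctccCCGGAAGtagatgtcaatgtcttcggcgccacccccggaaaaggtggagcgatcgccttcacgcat
Uqcrh, chr4:116075071-116075190, minus strand: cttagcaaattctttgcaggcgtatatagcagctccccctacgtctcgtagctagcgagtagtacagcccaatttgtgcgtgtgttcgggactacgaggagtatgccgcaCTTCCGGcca
Cox6b1, chr7:30626115-30626234, minus strand: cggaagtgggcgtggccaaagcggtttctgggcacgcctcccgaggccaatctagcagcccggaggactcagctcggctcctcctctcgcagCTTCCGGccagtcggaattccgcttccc
Atp5e, chr2:174464102-174464221, minus strand: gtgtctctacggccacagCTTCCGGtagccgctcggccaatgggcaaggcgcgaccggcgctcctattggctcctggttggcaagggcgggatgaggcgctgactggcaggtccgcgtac
Atp5k, chr5:108434400-108434519, minus strand: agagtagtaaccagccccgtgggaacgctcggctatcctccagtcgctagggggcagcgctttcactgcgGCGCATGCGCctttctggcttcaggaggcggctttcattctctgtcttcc

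The windows of Uqcr10, Cox7c and Cox8b held neither the GABP nor the NRF1 motif, and Atp5mpl had no entry in the table. A match is a string of letters and says nothing of binding in these cells. Among the regulators themselves, Esrra, the nuclear receptor ERRα that acts on respiratory genes with PGC-1 coactivators, was at 15.8 and 14.4 CPM (read counts scaled to library size after TMM normalization) in controls 2 and 3 and at 33.8, 31.6 and 29.3 CPM in irradiated replicates 1, 2 and 3, with a log2 fold change of 1.06 ± 0.17 (SE) and an edgeR adjusted p of 0.0090. Pprc1, a PGC-1-related coactivator, was at 114 and 110 CPM in the controls and at 64.8, 61.0 and 71.3 CPM after irradiation, and fell by 0.77 (adjusted p = 0.011, edgeR). Gabpb2, a β subunit of GABP, was at 147 and 126 CPM against 68.7, 76.7 and 88.1 CPM, and fell by 0.81 (adjusted p = 0.013, edgeR). The other GABP genes, Gabpa and Gabpb1, and Nrf1 had log2 fold changes of 0.09, 0.15 and −0.08. They were not called (adjusted p = 0.68, 0.46 and 0.75, edgeR). The PGC-1 genes Ppargc1a, at 2.95 to 4.55 CPM over the libraries, and Ppargc1b, at 0.35 to 1.24 CPM, were low and not called. Pprc1 and Gabpb2 have main transcripts of 5246 and 8661 bases, and their log2 fold changes were −0.38 and −0.02 with the length offset, neither of them called. Yy1, with a main transcript of 6178 bases, was at 0.20 and not called (adjusted p = 0.34, edgeR), and with the offset it was at 0.72 and called (adjusted p = 0.035, edgeR). Of 12 regulators of nuclear respiratory genes tested, 1 was higher and 2 were lower, close to the 12.7% and 13.0% of all genes. With the offset 2 were higher (Esrra and Yy1) and 0 lower, where 3.05% and 2.21% of all genes were.

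Complex III is built around a core of cytochrome b, cytochrome c1 (Cyc1) and the Rieske iron-sulfur protein (Uqcrfs1), flanked by the large core proteins Uqcrc1 and Uqcrc2. Of its 9 nuclear members, 8 were called higher, where 12.7% of all genes were. In all 9 every irradiated library was above both controls, an arrangement seen in that direction for 30.1% of all genes. The nuclear median was 0.98. Uqcrfs1 was at 56.4 and 70.1 CPM in the controls and at 136, 134 and 103 CPM in irradiated replicates 1, 2 and 3, a log2 fold change of 0.98 ± 0.19 (adjusted p = 0.011, edgeR). Uqcrc1 was at 118 and 115 CPM in the controls and at 169, 174 and 169 CPM after irradiation (0.55 ± 0.14, adjusted p = 0.023, edgeR). Uqcrc2 was at 85.2 and 93.1 CPM in the controls and at 132, 131 and 130 CPM after irradiation (0.56 ± 0.14, adjusted p = 0.024, edgeR). Both core proteins were tight within each group, and control 2 and control 3 were closer to each other than to any irradiated library. Cyc1, which carries the heme that hands electrons to cytochrome c, was at 120 and 97.4 CPM against 139, 166 and 134 CPM, and its log2 fold change of 0.43 ± 0.17 was not called (adjusted p = 0.093, edgeR).

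The small subunits of complex III surround the core and have main transcripts, those with most reads, of 434 to 1521 bases. All were called, where 12.7% of all genes were called higher, with a median of 1.57 and the 4 highest changes of the complex. With the length offset 3 of the 5 were called, where 3.05% of all genes were. Uqcrh, the acidic hinge protein near cytochrome c1, was at 17.3 and 26.5 CPM in the controls and at 63.8, 92.5 and 57.3 CPM in irradiated replicates 1, 2 and 3, a log2 fold change of 1.70 ± 0.27 (adjusted p = 0.0090, edgeR). Uqcrq was at 18.6 and 26.8 CPM against 54.2, 67.7 and 45.4 CPM (1.30 ± 0.23, adjusted p = 0.010, edgeR). The 1521 bases are those of Uqcrq, whose coding transcript of 405 bases had fewer reads but more abundance scaled for length (TPM) in every library. Its length class and its offset rest on the longer transcript. Uqcr10 was at 10.0 and 17.0 CPM against 43.0, 50.04 and 27.7 CPM, with a log2 fold change of 1.57. In each of these, irradiated replicate 2 was highest and control 2 lowest. Uqcr11 had the highest fold of the complex, 2.39 ± 0.58 (adjusted p = 0.023, edgeR), and also the widest controls, at 2.77 CPM in control 2 and 11.0 CPM in control 3 against 31.3, 54.5 and 22.3 CPM. Uqcrb rose least of the small subunits, at 23.1 and 23.0 CPM against 40.1, 51.6 and 32.1 CPM (0.84 ± 0.22).

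**Figure D1:**
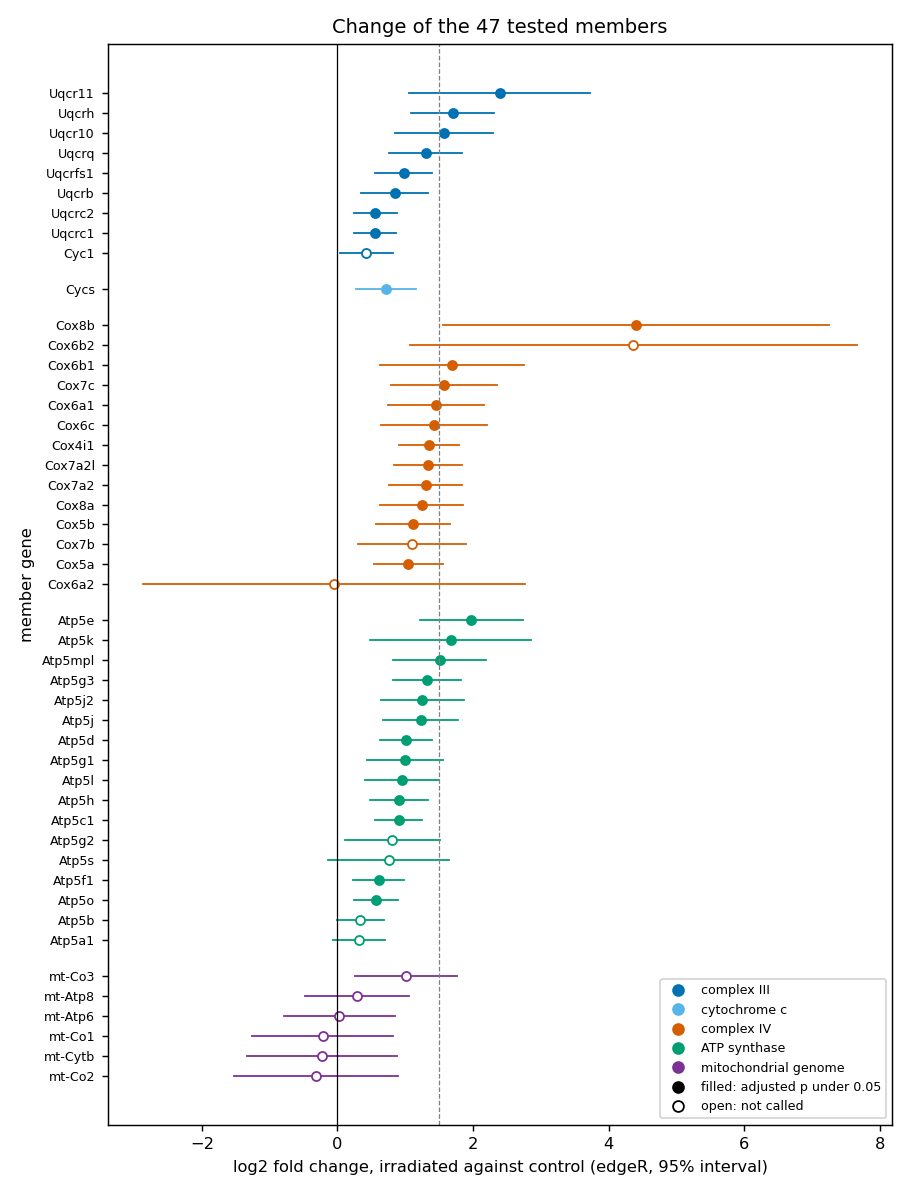
Log2 fold change of irradiated against control libraries for the 47 tested members, with its 95% interval from edgeR, grouped by complex and genome. Filled points passed an adjusted p of 0.05, open points did not, and the dashed line marks 1.5. The nuclear members lie to the right of 0 except Cox6a2 (−0.05), and the 6 mitochondrially encoded members spread from −0.32 to 1.01.

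Cytochrome c (Cycs), the mobile carrier between complexes III and IV, was at 42.1 and 50.1 CPM in the controls and at 76.3, 89.7 and 61.3 CPM in irradiated replicates 1, 2 and 3. The log2 fold change was 0.72 ± 0.19 (adjusted p = 0.031, edgeR), and the groups did not overlap, as in 30.1% of all genes in that direction. Its main transcript is long for the group, at 3123 bases, and the fold change was the same with the length offset (0.72), although the adjusted p rose to 0.057 (edgeR). A gene on chromosome 19, Gm10053, is identical to Cycs over 945 of its 946 bases and took 30.8% to 37.4% of the reads of the pair in each library. With the pair summed, the log2 fold change was 0.64 and the adjusted p 0.036 (edgeR).

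Complex IV has catalytic subunits made in the mitochondrion and a coat of nuclear subunits, several of which exist as a common isoform and a tissue isoform. Of 14 nuclear members tested, 11 were called higher, Cox8b among them, and 0 lower, with a median of 1.34. Of all genes 12.7% were called higher and 13.0% lower. All 10 common isoforms were above both controls in every irradiated library, as were 30.1% of all genes, and 9 of the 10 were called. Cox4i1, the subunit through which ATP inhibits the enzyme, had the highest TPM of them in every library. It was at 146 and 190 CPM in the controls and at 423, 487 and 373 CPM after irradiation, and had the smallest p of all members (log2 fold change 1.35 ± 0.19, adjusted p = 0.0085, edgeR). Cox5a was at 30.2 and 39.8 CPM against 75.2, 86.3 and 55.5 CPM (1.05 ± 0.22, adjusted p = 0.015, edgeR). Cox5b, a zinc-binding subunit, was at 37.8 and 40.6 CPM against 77.3, 113 and 64.7 CPM (1.12 ± 0.24, adjusted p = 0.015, edgeR). In Cox4i1, Cox5a and Cox5b, irradiated replicate 2 was highest and irradiated replicate 3 lowest of the treated libraries.

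Cox6a1 was at 44.7 and 87.5 CPM in the controls and at 187, 220 and 137 CPM after irradiation, a log2 fold change of 1.46. Cox6b1, which faces the cytochrome c side of the enzyme, was at 11.7 and 34.7 CPM against 64.8, 107 and 52.2 CPM, with a log2 fold change of 1.69 ± 0.46 (adjusted p = 0.032, edgeR). The controls of Cox6b1 lay 1.57 apart on the log2 scale, nearly as far as the group difference. Without control 2 its log2 fold change was 1.12 and its adjusted p 0.11 (edgeR). Cox7a2 was at 33.6 and 31.9 CPM against 73.5, 107 and 62.6 CPM (1.30 ± 0.23, adjusted p = 0.010, edgeR), and here the controls were close together. Cox7a2l, which holds complexes III and IV together in supercomplexes, was at 40.4 and 62.6 CPM against 114, 148 and 127 CPM (1.33 ± 0.22, adjusted p = 0.0091, edgeR). Cox8a was at 47.9 and 70.7 CPM against 124, 187 and 109 CPM, with a log2 fold change of 1.24. Cox7b was at 17.4 and 31.1 CPM against 42.9, 75.7 and 37.4 CPM, and its log2 fold change of 1.10 just missed the cutoff (adjusted p = 0.0502, edgeR), while DESeq2 called it (adjusted p = 0.0058). Cox6c was at 19.9 and 32.5 CPM against 67.5, 98.8 and 45.04 CPM, with a log2 fold change of 1.43 (adjusted p = 0.021, edgeR). Cox7c was at 24.2 and 38.2 CPM against 84.9, 133 and 60.1 CPM, with a log2 fold change of 1.57 (adjusted p = 0.016, edgeR).

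The tissue isoforms of complex IV, which belong mainly to muscle, testis and lung, were at or near 0 reads. Cox7b2 and Cox8c had 0 reads in every library, Cox4i2 had 1 read in irradiated replicate 2 and 0 in the others, and Cox7a1 had 0 reads in the controls and 5, 0 and 4 in the irradiated replicates, so these 4 were not tested. Cox6a2 had 0 and 19 reads in the controls and 11, 9 and 5 after irradiation. Cox8b, the heart and muscle isoform, had 0 and 2 reads in the controls and 18, 34 and 10 reads in irradiated replicates 1, 2 and 3, and was called higher (adjusted p = 0.036, edgeR). Scaled to library size, its summed reads were 23.0 times higher after irradiation, with an exact 95% interval from 6.10 to 194 that covers counting error only. Cox6b2, the testis isoform, had 0 and 1 reads against 18, 13 and 3 reads and was not called (adjusted p = 0.056, edgeR). With controls at or near 0 reads, Cox8b and Cox6b2 passed the filter on low counts only through the irradiated libraries. A rise was thus the only direction they could take. Cox8b is included in the counts of called members, and its call is no support for a rise of the group. On a scale that takes length into account, in irradiated replicate 2, where Cox8b was highest, it was at 28.4 TPM (abundance scaled for transcript length) and Cox8a at 1083 TPM.

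ATP synthase has a soluble F1 head that makes ATP, a rotating c ring in the membrane, a peripheral stalk that holds the head still, and small membrane proteins that join the enzyme into dimers. Of its 17 nuclear members 13 were called higher and 0 lower, with a median of 0.96, where 12.7% and 13.0% of all genes were called. In all 17 every irradiated library was above both controls, as in 30.1% of all genes. The 2 large head subunits, which have the longest messages of the complex, moved least. Atp5b, the β subunit, was at 1045 and 998 CPM in the controls and at 1290, 1267 and 1317 CPM after irradiation (0.34 ± 0.15, adjusted p = 0.13, edgeR). Atp5a1, the α subunit, was at 862 and 725 CPM against 1069, 921 and 974 CPM (0.32 ± 0.17, adjusted p = 0.19, edgeR). Their 95% intervals, −0.01 to 0.68 and −0.06 to 0.69, end below the median of the nuclear members.

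The smaller head subunits rose more. Atp5c1, the central rotating shaft, was at 98.4 and 101 CPM in the controls and at 185, 207 and 169 CPM after irradiation (0.90 ± 0.15, adjusted p = 0.0092, edgeR). Atp5d was at 67.8 and 83.0 CPM against 163, 158 and 134 CPM (1.01 ± 0.17, adjusted p = 0.0091, edgeR). Atp5e, the smallest head subunit, with a message of 421 bases, was at 14.5 and 22.9 CPM against 74.5, 98.8 and 47.3 CPM, a log2 fold change of 1.98 ± 0.33 (adjusted p = 0.0092, edgeR). It was the 1 member that passed both cutoffs with the length offset, at 1.51 (adjusted p = 0.032, edgeR), where 0.227% of all genes did upward. The 4 stalk subunits were all called and ranged from 0.56 for Atp5o, which links the stalk to the head, to 1.23 for Atp5j. Of all genes 12.7% were called higher. With the length offset 0 of the 4 were called, where 3.05% of all genes were.

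The c ring is made from 3 genes, Atp5g1, Atp5g2 and Atp5g3, that encode the same mature protein with different import signals. As the reads were divided between genes and copies, Atp5g3 had the highest TPM of the 3 in every library. It was at 49.2 and 60.0 CPM in the controls and at 132, 170 and 108 CPM after irradiation (1.32 ± 0.22, adjusted p = 0.0091, edgeR). Atp5g1 was at 33.4 and 40.5 CPM against 66.3, 98.7 and 56.7 CPM (1.00 ± 0.25, adjusted p = 0.023, edgeR). Atp5g2 itself held few reads, at 5.85 and 11.1 CPM against 13.3, 17.6 and 13.7 CPM (0.81 ± 0.31, adjusted p = 0.083, edgeR). Most reads that match it were given to Gm10175, a transcribed pseudogene on chromosome 7 whose 645 bases are identical to Atp5g2, and which took 86.2% to 91.9% of the reads of the pair. Summed, the pair was at 59.5 and 80.9 CPM in the controls and at 164, 177 and 124 CPM after irradiation, with a log2 fold change of 1.14 ± 0.21 and an adjusted p of 0.010 (edgeR). Whether those reads came from the gene or from its copy cannot be told apart from these data. The summed pair was above Atp5g3 in CPM in every library, so the order of the 3 genes by level is not settled.

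Of the small membrane subunits, all 4 nuclear ones were called, where 12.7% of all genes were called higher. With the length offset 1 of the 4 was called, where 3.05% of all genes were. Atp5k, the e subunit found between dimers, was at 2.28 and 3.86 CPM in the controls and at 6.49, 16.9 and 5.93 CPM after irradiation (1.67 ± 0.52, adjusted p = 0.047, edgeR). Irradiated replicate 2 stood above the other irradiated libraries of Atp5k by more than 2-fold, and without control 2 the adjusted p was 0.21 (edgeR). Atp5mpl was at 8.23 and 13.0 CPM against 25.1, 40.6 and 24.9 CPM (1.51 ± 0.30, adjusted p = 0.013, edgeR). Atp5j2 and Atp5l had log2 fold changes of 1.25 and 0.96. Atp5s, the coupling factor outside the structure, was at 2.77 and 3.45 CPM against 4.94, 7.31 and 3.57 CPM and was not called (0.76 ± 0.39, adjusted p = 0.18, edgeR).

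**Figure D2:**
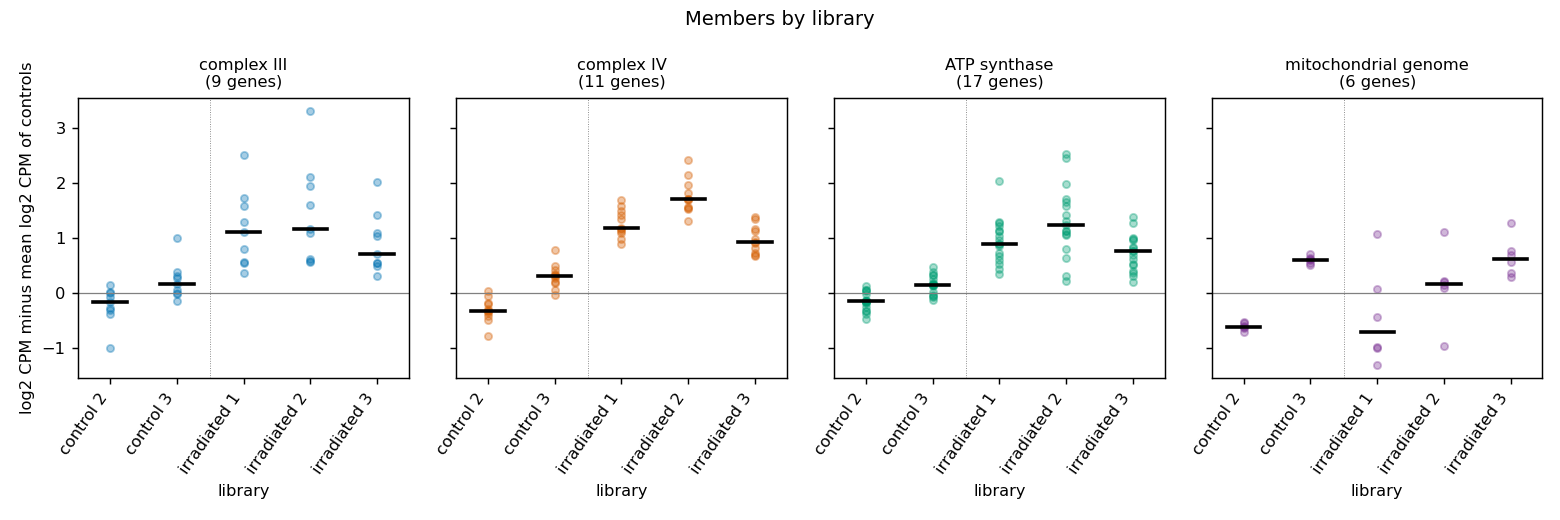
Log2 CPM of each member minus its mean in the controls, by library, for members with a mean of at least 50 reads, in 4 panels by complex and genome. Points are genes and black bars are medians. In the nuclear panels control 2 has a lower median than control 3 and irradiated replicate 2 has the highest median, while the mitochondrial panel has its lowest median in irradiated replicate 1.

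Within each group many of the nuclear members shared an order of libraries. Of the 41 tested, 33 were higher in control 3 than in control 2, 34 were highest among the irradiated libraries in replicate 2 and 36 were lowest in replicate 3. Cyc1 and Atp5a1 were among the exceptions, with control 3 below control 2 by 0.30 and 0.25 on the log2 scale. Relative to the mean of the controls, their median log2 CPM was −0.19 in control 2 and 0.19 in control 3, and 1.11, 1.55 and 0.82 in irradiated replicates 1, 2 and 3. For the complex IV members the controls were −0.32 and 0.32, so that control 3 stood 0.65 above control 2 at the median gene, where over all genes the controls differed by 0.01. From lowest to highest nuclear median the libraries ran control 2, control 3, irradiated 3, irradiated 1, irradiated 2, which is the order of falling mean transcript length, a relation over 5 libraries with no test.

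Among the 41 tested nuclear members the log2 fold change was greater for shorter main transcripts, with a Spearman rho of −0.72 between length and log2 fold change across genes. Over all 14099 genes rho was −0.56. With the length offset rho among the members was −0.64. The genes share libraries and are not independent replicates. Of the 15 tested nuclear members with main transcripts up to 600 bases 14 were called higher, with a median of 1.57, where 36.9% of 312 genes of that length were called, with a median of 0.78. Between 600 and 1000 bases 11 of 13 were called, where 45.4% of 757 genes were, with medians of 1.12 and 0.87. Between 1000 and 2000 bases 7 of 11 were called, where 29.6% of genes were, with medians of 0.76 and 0.53. The members were thus above the median of genes of like length in each of these classes, most of all in the shortest one. That class includes Cox8b and Cox6b2, which passed the filter on low counts only through the irradiated libraries and could only rise. Neither is support for the difference from other genes of that length.

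**Figure D3:**
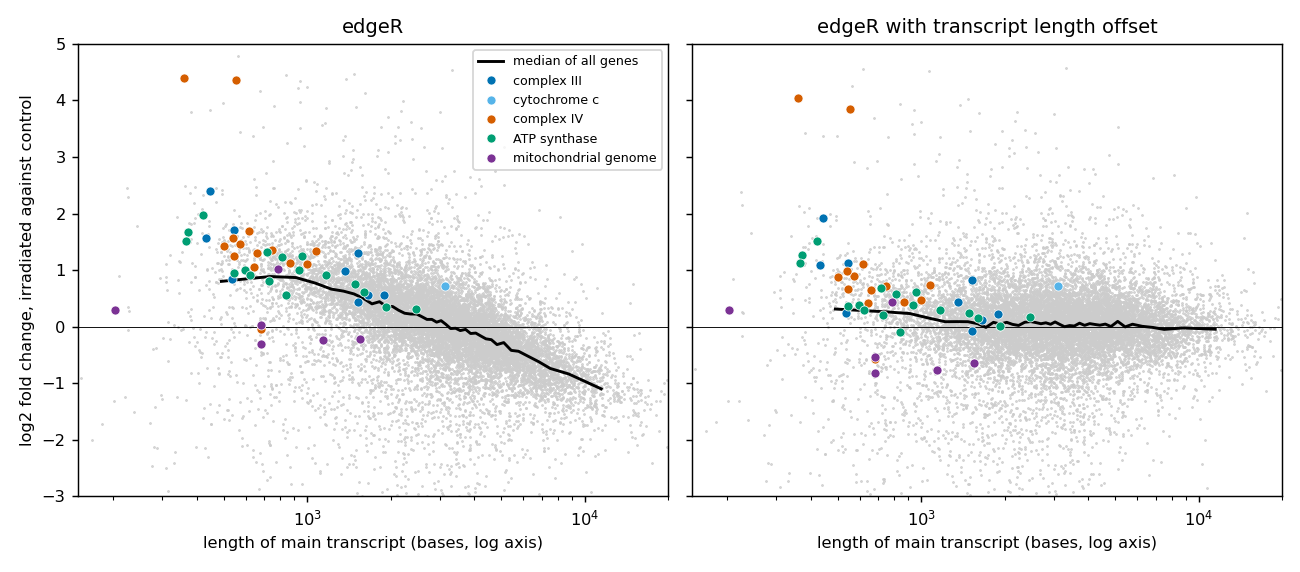
Log2 fold change against the length of the main transcript (log axis) for all tested genes (grey), with members colored by complex and genome and the median of all genes as a black line, without (left) and with (right) the length offset. Genes beyond −3 and 5 are outside the axis. Without the offset the all-gene median falls with length, and the nuclear members with main transcripts up to 600 bases have a median of 1.57. With the offset that median is 1.10. Both medians include Cox8b and Cox6b2, which passed the filter on low counts only through the irradiated libraries.

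The difference between the nuclear and the mitochondrially encoded members was not tested. The mitochondrial median of −0.10 ran from −0.55 to 0.68 depending on the library left out. mt-Co1, the subunit of complex IV that reduces oxygen, was at 1876 and 5004 CPM in controls 2 and 3 and at 1558, 3559 and 3755 CPM in irradiated replicates 1, 2 and 3 (−0.22 ± 0.45, adjusted p = 0.75, edgeR). mt-Co2, which receives electrons from cytochrome c, was at 707 and 1618 CPM against 537, 550 and 1715 CPM (−0.32 ± 0.53, adjusted p = 0.69, edgeR). mt-Cytb, the ubiquinol-oxidizing core of complex III, was at 912 and 2141 CPM against 563, 1541 and 1798 CPM (−0.23 ± 0.48, adjusted p = 0.75, edgeR). In all 3 the irradiated libraries reached on both sides of control 2, and control 3 was more than 2-fold above control 2.

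mt-Atp6, the proton channel subunit of ATP synthase, was at 798 and 1701 CPM in the controls and at 860, 1241 and 1713 CPM after irradiation (0.03 ± 0.36, adjusted p = 0.96, edgeR). mt-Atp8 was at 10.8 and 22.1 CPM against 16.2, 17.7 and 26.3 CPM (0.29 ± 0.33, adjusted p = 0.55, edgeR). mt-Co3 was at 690 and 1665 CPM in the controls and at 2241, 2322 and 2574 CPM after irradiation, with every irradiated library above both controls. Its log2 fold change of 1.01 ± 0.33 missed the cutoff (adjusted p = 0.053, edgeR), while DESeq2 called it (adjusted p = 0.0039). Without control 2 its log2 fold change was 0.53 (adjusted p = 0.14, edgeR), and without control 3 it was called (adjusted p = 0.0040, edgeR). The intervals were wide, for instance −1.25 to 0.82 for mt-Co1, and a difference within them was not detectable with these libraries. The genes of the mitochondrial genome together took 1.07% and 2.03% of the reads in the controls and 0.824%, 1.498% and 1.90% after irradiation.

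Values of single mitochondrial genes also depend on how reads were divided with copies of mitochondrial DNA in the nuclear genome, of which a block lies on chromosome 1. The ends of mt-Atp6 and mt-Co2 and of their copies are shown because they are what tells the transcripts apart: the 678 bases of Gm10925 are identical to mt-Atp6, and the 681 bases of Gm28661 to mt-Co2. Each copy lacks only the last bases of the mitochondrial gene, shown in capitals.
mt-Atp6, last 60 bases: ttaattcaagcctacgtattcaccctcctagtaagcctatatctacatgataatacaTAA
Gm10925, last 57 bases: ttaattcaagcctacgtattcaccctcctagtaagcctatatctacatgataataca
mt-Co2, last 60 bases: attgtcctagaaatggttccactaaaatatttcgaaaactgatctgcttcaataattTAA
Gm28661, last 57 bases: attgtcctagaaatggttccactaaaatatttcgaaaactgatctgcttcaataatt

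Gm10925 (chr1:24613974-24614651) was given 0 and 2489 reads in controls 2 and 3, and 28121, 17245 and 16769 reads in irradiated replicates 1, 2 and 3. It took 0% and 5.21% of the summed reads of the pair in the controls and 56.6%, 38.8% and 26.3% after irradiation. Summed, the pair was at 798 and 1794 CPM in the controls and at 1979, 2029 and 2324 CPM in the irradiated libraries, which were then all above both controls, with a log2 fold change of 0.70 ± 0.31 that was not called (adjusted p = 0.12, edgeR). For mt-Co2 the share of the copy was 0% and 25.6% in the controls and 28.7%, 64.9% and 8.20% after irradiation. The summed pair was at 707 and 2175 CPM against 754, 1566 and 1868 CPM, with a log2 fold change of −0.05. The copy of mt-Co3, Gm28437, had 0 reads in every library. With all copies pooled the median of the 6 genes was 0.12, and 0 of them were called.

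**Figure D4:**
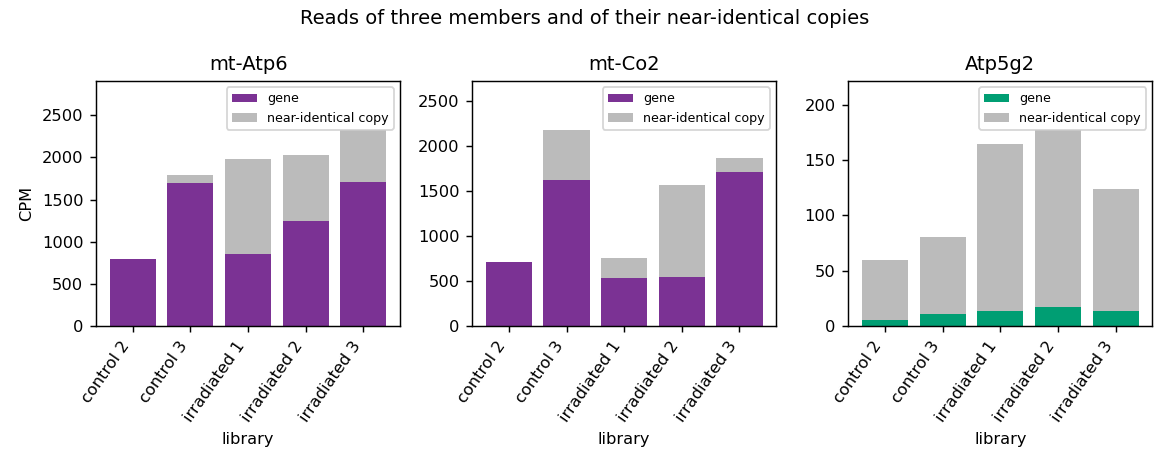
CPM of mt-Atp6, mt-Co2 and Atp5g2 (colored) and of their near-identical copies (grey, stacked on top) in each library, on axes that start at 0. The grey part of mt-Atp6 is absent in control 2 and takes 56.6% in irradiated replicate 1, and most of the reads of the Atp5g2 pair are grey in every library.

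mt-Atp8 and mt-Atp6 are read from overlapping frames of a single message, and their transcripts share the 43 bases in capitals in the stretch that follows, so that reads there belong to both.
mt-Atp8 end and mt-Atp6 start: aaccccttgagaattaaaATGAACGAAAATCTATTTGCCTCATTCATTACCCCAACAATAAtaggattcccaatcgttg

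The other protein-coding genes of the mitochondrial genome, which encode complex I subunits, were 7 in the test. Of these, 1 was called higher and 0 lower by edgeR and by DESeq2, with 2 lower at an unadjusted p under 0.05 and a median of −0.54. The 1 of 7 called higher is close to the share of all genes, 12.7%, and 13.0% of all genes were called lower. mt-Nd3, which follows mt-Co3 on the same strand, was at 67.2 and 126 CPM in the controls and at 202, 203 and 234 CPM after irradiation (1.14 ± 0.26, adjusted p = 0.017, edgeR). mt-Nd5 was at 1973 and 1886 CPM in the controls and at 434, 992 and 1400 CPM after irradiation (−1.03, adjusted p = 0.082, edgeR). mt-Nd4l was at 284 and 263 CPM against 38.7, 115 and 201 CPM (−1.21, adjusted p = 0.11, edgeR). Both were below the controls in every irradiated library but were not called. Near-identical copies were searched for the members only. How reads of mt-Nd3, mt-Nd5, mt-Nd4l and the other complex I genes were divided with copies was not checked. Factors that copy, transcribe or stabilize mitochondrial RNA showed 0 genes higher and 1 lower among 19 tested. Both counts are below the 12.7% and 13.0% of all genes. At an unadjusted p under 0.05 they were 5 and 1, and by DESeq2 0 and 1. The gene that fell was Lrpprc, which keeps mitochondrial messages stable, at 238 and 181 CPM against 120, 131 and 160 CPM (−0.61 ± 0.18, adjusted p = 0.043, edgeR). Its main transcript has 4393 bases, and with the length offset its log2 fold change was −0.37 and it was not called (adjusted p = 0.17, edgeR). Its partner Slirp was at 4.10 and 9.42 CPM against 8.72, 37.2 and 15.9 CPM (1.61 ± 0.60, adjusted p = 0.080, edgeR). Tefm, the mitochondrial elongation factor, was at 4.17 and 4.73 CPM against 6.29, 10.5 and 7.17 CPM, with a log2 fold change of 0.84 and the same adjusted p.

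Other nuclear genes build the complexes. Of 35 assembly factors and regulators of complexes III, IV and ATP synthase, 14 were called higher and 0 lower, with a median of 0.63 and a median length of 1307 bases. Of all genes 12.7% were called higher and 13.0% lower. Among all genes with main transcripts of 1000 to 2000 bases 29.6% were called higher, with a median of 0.53. The 35 ran from 444 to 4798 bases, however. Of genes up to 600 bases 36.9% were called higher, of those from 600 to 1000 bases 45.4%, and of those above 2000 bases 4.77%. DESeq2 called 16 higher and 0 lower, and 1 was lower at an unadjusted p under 0.05. Coa3, needed for synthesis of the largest complex IV subunit, was at 12.8 and 12.4 CPM in the controls and at 30.8, 31.6 and 24.1 CPM after irradiation (1.19 ± 0.20, adjusted p = 0.0091, edgeR). Higd1a, a hypoxia-induced protein that binds complex IV, was at 15.0 and 23.8 CPM against 61.4, 97.5 and 52.3 CPM (1.86 ± 0.31, adjusted p = 0.0092, edgeR). Uqcc2, which assists cytochrome b, was at 10.0 and 14.4 CPM against 34.5, 44.0 and 25.8 CPM (1.51 ± 0.27, adjusted p = 0.010, edgeR). Higd2a, at 7.35 and 10.2 CPM against 25.6, 33.7 and 16.9 CPM, and Cox16, at 1.37 and 2.48 CPM against 5.57, 6.94 and 3.82 CPM, were also past both cutoffs, with log2 fold changes of 1.54 and 1.501. With the length offset 2 of the 35 were called, Higd1a (1.65, adjusted p = 0.029, edgeR) and Uqcc2 (0.96, adjusted p = 0.037, edgeR). Of all genes 3.05% were called higher with it.

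Complex II and the citrate cycle are encoded wholly in the nucleus and feed electrons to complex III. Of their 17 genes, 6 were higher and 0 lower by edgeR and by DESeq2, 1 was lower at an unadjusted p under 0.05, and the median was 0.34. Of all genes 12.7% were called higher and 13.0% lower by edgeR. Among genes with main transcripts of 1000 to 2000 bases 29.6% were called higher, and among longer ones 4.77%. Sdhd, a membrane anchor of complex II, was at 41.4 and 54.2 CPM in the controls and at 108, 108 and 83.5 CPM after irradiation (1.06 ± 0.19, adjusted p = 0.010, edgeR). Sdhc, the other anchor, was at 30.7 and 50.3 CPM against 82.8, 111 and 90.6 CPM (1.23 ± 0.24, adjusted p = 0.012, edgeR). Suclg1 of the citrate cycle was at 46.5 and 46.3 CPM against 76.5, 82.5 and 69.7 CPM (0.71 ± 0.15, adjusted p = 0.014, edgeR). In all 3 genes the groups did not overlap, as in 30.1% of all genes in that direction. Sdhc, with a main transcript of 3171 bases, kept its call with the length offset (1.24, adjusted p = 0.032, edgeR). It was the 1 gene of the 17 called with the offset, where 3.05% of all genes were called higher. The offset of Sdhc rests on its transcript with most reads. In control 2 Sdhc had 877 reads and 57.0 TPM, while Cycs, at 3123 bases, had 1203 reads and 32.2 TPM. Shorter transcripts thus held part of the TPM of Sdhc.

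Levels can be summed and compared between genes on the TPM scale, which takes transcript length into account. The summed TPM of the 45 nuclear members was 10391 and 12064 in the controls and 17109, 20282 and 15790 after irradiation. Complex III nuclear members summed to 1059 and 1364 TPM against 2285, 2831 and 1879 TPM, and complex IV nuclear members to 2146 and 3344 TPM against 5623, 7275 and 4701 TPM. ATP synthase summed to 7154 and 7322 TPM against 9158, 10129 and 9174 TPM. In each sum the irradiated libraries were all above both controls, and with 2 against 3 libraries the smallest two-sided p an exact permutation test can give is 0.1. The ratio of the group means was 1.92 for complex III, 2.14 for complex IV and 1.31 for ATP synthase.

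Much of the ATP synthase sum came from Atp5b, at 3884 and 3492 TPM in the controls and 3214, 2997 and 4046 TPM after irradiation. Only 26.5% to 34.5% of that TPM was on its protein-coding transcript of 1916 bases, which held 88.5% to 92.4% of the reads. The rest was on a processed transcript of 343 bases, at 2849 and 2445 TPM in the controls and at 2101, 1949 and 2892 TPM after irradiation, while the coding transcript was at 1030 and 1026 TPM against 1108, 1034 and 1147 TPM. Without Atp5b, the nuclear members summed to 6507 and 8572 TPM in the controls and to 13895, 17285 and 11744 TPM in irradiated replicates 1, 2 and 3. In all other members with reads the coding transcripts held most of the TPM in every library. The 6 mitochondrial members summed to 14547 and 35124 TPM in the controls and to 15898, 20922 and 31069 TPM after irradiation, and the groups overlapped. With their near-identical copies they summed to 14547 and 38703 TPM against 21655, 29517 and 34934 TPM, which moved the ratio of the group means from 0.911 to 1.08, and the groups still overlapped.

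The line was checked against markers that define its type. The 5 neuroendocrine SCLC markers used here were tested (Insm1, Chga, Syp, Ncam1 and Calca), and their summed TPM was 1058 to 1179 in the controls and 902 to 1095 after irradiation. Of these, Syp and Calca were called higher and Ncam1 lower, with log2 fold changes of 0.64, 1.18 and −1.20. With the length offset they were at 0.54, 0.56 and −0.68 and none was called (adjusted p = 0.077, 0.30 and 0.13, edgeR). Macrophage markers summed to 4.55 to 6.89 TPM in the controls and 1.18 to 1.62 TPM after irradiation, with Csf1r and Adgre1 at 0 in both controls. Fibroblast markers summed to 0.176 to 13.6 TPM in the controls, nearly all from Col1a1 in control 2, and to 0.148 to 0.311 TPM after irradiation. Col3a1 was at 0 in every library.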

How the data were processed

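Cell pellets of KP1 were sequenced on an Illumina platform, 2 control and 3 irradiated libraries. The authors quantified reads with Salmon (0.8.2 in the submitters' processing notes) against mm10 and deposited, per transcript, estimated counts and TPM, with transcript and effective lengths in bases. The annotation release was not given in the sources used here. Of 113116 transcripts, 112841 (99.76%) matched GENCODE M21. Their estimated counts were summed by gene symbol and rounded to whole numbers, giving 21185956 to 31036317 reads per library.

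Groups were taken from the sample labels. Irradiated and control libraries were compared over all genes with edgeR 4.0.16 in R 4.3.3 (filterByExpr, TMM, quasi-likelihood test, Benjamini-Hochberg adjustment over 14099 genes), without a block. Calls needed an adjusted p under 0.05, and, where stated, a log2 fold change beyond 1.5. The labels do not say whether the replicate numbers pair the libraries. Same-numbered libraries had deviations from their group means that correlated at −0.17 and −0.16 over genes. Genes of a library share its trend with transcript length, so these correlations cannot tell whether the cultures were paired. Fits with a replicate block are given below. Transcript length is that of a gene's transcript with most reads, and the length and GC offsets used splines with 5 degrees of freedom. Near-identical copies were found with blastn 2.17.0 at 95% identity or more, over 80% of the member or of the shorter copy. Limma 3.58.1 was run on log2(TPM + 1) and DESeq2 1.42.0 on counts as alternatives. Tables were made in Python 3.11.15 (numpy 2.4.6, pandas 2.3.3, scipy 1.17.1) and figures with matplotlib 3.10.9.

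The members, the lists of other genes and the motifs were chosen with earlier results of these data known. Every member is grouped by complex, genome and role. Values in each library are given for the mitochondrial genes, the core subunits, the isoform families and the 3 nuclear members of each complex with the smallest p, and of each other pathway list for the 3 genes with the smallest p and those past both cutoffs. Values of Uqcr10, Uqcr11, Uqcrb, Atp5k, Atp5mpl and Atp5s by library were added after they were seen. One gene of the marker lists is not reported here.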

Additional observations from a re-analysis of the deposited data

How the results depend on the processing

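Members called higher numbered 33 and past both cutoffs 9. With RLE or upper quartile normalization, DESeq2, other filters on low counts, the effective length offset, the GC offset, protein-coding genes alone, the genes of the mitochondrial genome left out, or copies pooled, these counts stayed within 1.5 times, and 0 members were called lower by edgeR, DESeq2 or limma in any of them (at an unadjusted p under 0.05, 0 as well). Leaving out each library in turn gave 2 to 34 members higher, 0 to 18 past both cutoffs, and 0 lower. It gave medians of 0.87 to 1.16 for complex III, 1.08 to 1.77 for complex IV, 0.79 to 1.16 for ATP synthase, 0.92 to 1.44 for all nuclear members and −0.55 to 0.68 for the mitochondrial members. For the other lists it gave 0 to 14 assembly factors higher and 0 to 1 lower, 0 to 5 mitochondrial DNA and RNA factors higher and 0 to 1 lower, 1 to 2 regulators higher and 0 to 2 lower, 0 to 7 genes of complex II and the citrate cycle higher and 0 lower, and 0 to 1 other mitochondrial genes higher and 0 to 2 lower. Directions turned for genes that were not called: mt-Atp6 ranged from −0.40 to 0.69, mt-Atp8 from −0.12 to 0.91, mt-Co1 from −0.74 to 0.67, mt-Co2 from −1.09 to 0.42, mt-Cytb from −0.70 to 0.53 and Cox6a2 from −1.03 to 6.16, with the positive ends of mt-Co1, mt-Co2, mt-Cytb and Cox6a2 (whose remaining control had 0 reads) without control 3. With 1 control left, that library was assumed to vary like the others, and the cause of these changes was not tested.

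The length offset left 8 members higher and 1 past both cutoffs, with medians of 0.44 for complex III, 0.72 for complex IV, 0.36 for ATP synthase and 0.57 for the nuclear members. It left 2 assembly factors, 2 regulators, 1 gene of complex II and the citrate cycle and 0 other mitochondrial genes higher, and 0 mitochondrial factors and 0 regulators lower. Atp5o (−0.095), Cyc1 (−0.079) and mt-Atp6 (−0.53) changed sign. The length offset with copies pooled, added after the data were seen, gave 8 and 1 members, medians of 0.44, 0.71, 0.40 and 0.58, the same list counts (2, 2, 1 and 0 higher, 0 and 0 lower), and −0.083 for Atp5o and −0.078 for Cyc1. The offset takes out each library's own trend with length.

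Limma on log2(TPM + 1) or log2(TPM + 0.1), where the median of all genes was −0.24 or −0.30, called 23 or 24 members higher and 3 past both cutoffs in each, with complex III medians of 0.69 in both. Assembly factors higher were 8 in both and lower 0 or 1, mitochondrial factors lower 2, regulators higher 0, complex II and citrate cycle genes higher 3 or 2 and lower 1, and other mitochondrial genes higher 0. Atp5b was −0.12 in both, mt-Atp6 −0.19 in both, and Cox6a2 0.13 or 1.20. Upper quartile normalization gave 0 mitochondrial factors lower, the fit without a filter gave 2 of them higher and 3 other mitochondrial genes lower, and the GC offset gave 3 factors higher. The effective length offset gave 0 regulators higher and 0.025 for Cox6a2. A minimum mean of 50 reads gave −0.0096 for mt-Atp6. The GC offset gave 0.10 for mt-Co1, 0.046 for mt-Co2 and 0.12 for mt-Cytb. For the fits of this paragraph the share of all genes called was not worked out, so their counts have no background.

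The replicate numbers 2 and 3 are shared by the groups but nothing shows that they pair the libraries. Log2 ratios of replicate 2 to replicate 3 correlated at −0.20 between groups. Irradiated replicate 1 has no control of its number, so in every block fit it adds nothing to the group difference. Lower counts in these fits are thus not a measure of pairing. The share of all genes called was not worked out for the block fits, so their counts have no background. With the replicate block 20 members were higher, 6 assembly factors, 1 mitochondrial factor and 2 citrate cycle or complex II genes were higher, 0 mitochondrial factors and 0 regulators were lower, and Cox6a2 (0.48), mt-Co1 (0.25) and mt-Cytb (0.25) changed sign. The block with the length offset called 0 members (21 higher and 1 lower at an unadjusted p under 0.05, edgeR) and 0 genes of any list, with medians of 0.35, 0.77 and 0.31 for complexes III, IV and ATP synthase and 0.55 for the nuclear members, and gave −0.068 for Atp5o, −0.032 for Cyc1 and −0.31 for mt-Atp6. The block with copies pooled gave 7 assembly factors, 1 mitochondrial factor and 2 complex II or citrate cycle genes higher, 0 mitochondrial factors and 0 regulators lower, 0.48 for Cox6a2, 0.32 for mt-Co1, 0.46 for mt-Co2 and 0.25 for mt-Cytb. The crossed block, added after the data were seen, called 38 members, 6 mitochondrial factors and 2 regulators higher, and 2 assembly factors, 1 citrate cycle gene and 2 other mitochondrial genes lower, with 0.54 for Cox6a2 and 0.25 for mt-Co1 and mt-Cytb.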

Other observations

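The neighbouring messages mt-Atp6, mt-Co3 and mt-Nd3 of the mitochondrial genome had log2 fold changes of 0.03, 1.01 and 1.14, and that of mt-Atp6 was 0.70 with the reads of its copy added. mt-Co1, mt-Cytb and mt-Co2 were at −0.22, −0.23 and −0.32, and mt-Nd5 and mt-Nd4l at −1.03 and −1.21. By edgeR 1 of these genes was called (mt-Nd3), and DESeq2 also called mt-Co3. These genes were singled out after their values were seen. Copies were searched for the members only, so the values of mt-Nd3, mt-Nd5 and mt-Nd4l were not checked for them.

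Retained-intron or other non-coding transcripts of a few members held more of the reads in the controls than after irradiation. For Atp5l the coding transcript held 83.8% and 82.9% of the reads in controls 2 and 3 and 98.7%, 97.5% and 96.3% in irradiated replicates 1, 2 and 3. The retained-intron transcript of Atp5l, of 6310 bases, had 181 and 211 reads in the controls and 19.5, 43.3 and 47.6 reads after irradiation. Reads fell on shorter transcripts on average in the irradiated libraries, and the part of that trend in the Atp5l values was not tested. For Uqcr11 the coding share was 72.7% and 87.7% against 93.0%, 96.4% and 94.3%. Reads of its processed transcript did not fall, at 21.6 and 31.6 in the controls and at 55.4, 42.3 and 31.7 after irradiation. Both genes were picked after their values were seen, and no test was run.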
